A study of Homo sapiens with 21 samples.

Results

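Described here are 10 genes that control the passage of a cell from G1 into S phase: the cyclins CCND1, CCND3, CCNE1 and CCNE2, the cyclin-dependent kinases CDK2, CDK4 and CDK6, and the inhibitors CDKN1A (p21), CDKN1B (p27) and CDKN2A (p16 and p14ARF). They were taken by symbol from the array's annotation, out of 18132 genes with a probe set of their own, and all 10 were among the 12644 genes bright enough to be tested. The 21 samples are Affymetrix PrimeView arrays of RNA from 4 established lines of human breast cancer, kept for 6 hours in the solvent DMSO, in 50 nM THZ1 or in 250 nM THZ1. THZ1 binds CDK7 covalently; CDK7 is the kinase of the transcription factor TFIIH and also the catalytic subunit of the CDK-activating kinase. MDA-MB-468 and BT-549 are labelled triple-negative, ZR-75-1 is labelled ER+ and T47D ER+/PR+. There are 2 arrays at each dose for each line but BT-549, which has 1 and so has values and no test. The labels do not say that the 2 arrays of a group came from separate cultures, so the p-values measure the spread between arrays alone, and this spread may be technical.

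The passage through G1 is driven by D-type cyclins, which join CDK4 or CDK6, and then by E-type cyclins, which join CDK2. Together these kinases phosphorylate the retinoblastoma protein and release E2F transcription factors. The inhibitors of the CIP/KIP family, p21 and p27, bind the cyclin-CDK complexes, and p16 binds CDK4 and CDK6 alone. Each CDK also needs a phosphate on its activation loop, which the CDK-activating kinase supplies. In breast tumours CCND1 is often amplified in ER+ disease, and CDK4 and CDK6 are the targets of inhibitors in clinical use.

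Values are linear probe set intensities, whose array means lay between 326.4 and 342.8 with array backgrounds between 23.5 and 31.4. For both ER+ lines the source name given to every sample is MDA-MB-468, against its title and cell line field. With DMSO the luminal marker ESR1 averaged 30.9 ± 2.48 in MDA-MB-468, 441.6 ± 9.32 in ZR-75-1 and 906 ± 30.4 in T47D (SD over 2 arrays), and it was not above background on the BT-549 array. The luminal markers GATA3 and FOXA1 averaged 328 and 277 in MDA-MB-468, far below both ER+ lines. KRT8, KRT18 and KRT19 were high there, at 6354, 9811 and 12616, though below both ER+ lines. The basal keratin KRT5 averaged 3505 ± 15.2 in MDA-MB-468, with at most 50.0 in the other lines, and BT-549 had 14442 of the mesenchymal VIM. Of the immune and stromal markers with a probe set, the leukocyte gene PTPRC was above background on no DMSO array. CD3E, CD68, PECAM1 and PDGFRB were above it on every DMSO array, at group means of at most 78.5, and ACTA2 reached 3419 in BT-549 and 139 in T47D. The 2 arrays of a group correlated at 0.9905 to 0.9934 (Pearson's r of log2 intensity over probe sets, 9 groups). For the 10 genes, the SD between the 2 arrays of a group had a median of 0.075 on the log2 scale. An RNA spike-in was added by cell number, but a fixed 100 ng of RNA was amplified and no spike-in probe set is on the table. Neither cell number nor RNA per cell can therefore be read here, and every change given is relative to the other RNA on the array. While array means stayed close, the upper quartile of intensity was lower at the higher THZ1 dose than with DMSO in each line. In ZR-75-1 it was 145.7 and 140.3 at that dose, against 207 and 200.3 with DMSO.

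The promoters of the 4 genes that show the range of responses below are printed from RefSeq (GRCh38.p14), as the 250 bases before the transcription start, read 5′ to 3′ on the gene's strand. CDKN1B and CCNE1 were lower in the 3 tested lines at 250 nM, CDKN1A was higher or lower by dose and line, and CDK4 was not called against DMSO with the values as deposited and the probe set that stands for it. Capitals mark CCAAT and the GC box GGGCGG, either as written or as its reverse complement CCGCCC.
CDKN1B, chr12:12717118-12717367, plus strand: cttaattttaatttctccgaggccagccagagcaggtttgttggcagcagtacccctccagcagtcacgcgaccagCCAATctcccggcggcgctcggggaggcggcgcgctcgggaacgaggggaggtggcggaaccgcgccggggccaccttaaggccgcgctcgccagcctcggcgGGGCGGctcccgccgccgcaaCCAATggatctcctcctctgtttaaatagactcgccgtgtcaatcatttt
CCNE1, chr19:29811741-29811990, plus strand: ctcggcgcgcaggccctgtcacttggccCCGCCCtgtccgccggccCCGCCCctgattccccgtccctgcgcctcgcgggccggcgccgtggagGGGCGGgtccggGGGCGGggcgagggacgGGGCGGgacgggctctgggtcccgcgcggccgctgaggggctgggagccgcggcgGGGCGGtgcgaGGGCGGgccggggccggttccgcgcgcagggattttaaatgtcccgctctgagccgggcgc
CDKN1A, chr6:36678464-36678713, plus strand: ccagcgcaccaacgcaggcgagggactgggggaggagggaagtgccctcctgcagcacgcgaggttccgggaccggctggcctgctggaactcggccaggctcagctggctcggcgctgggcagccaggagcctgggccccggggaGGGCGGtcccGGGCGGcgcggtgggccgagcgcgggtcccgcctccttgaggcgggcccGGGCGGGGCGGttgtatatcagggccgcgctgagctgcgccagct
CDK4, chr12:57752311-57752560, minus strand: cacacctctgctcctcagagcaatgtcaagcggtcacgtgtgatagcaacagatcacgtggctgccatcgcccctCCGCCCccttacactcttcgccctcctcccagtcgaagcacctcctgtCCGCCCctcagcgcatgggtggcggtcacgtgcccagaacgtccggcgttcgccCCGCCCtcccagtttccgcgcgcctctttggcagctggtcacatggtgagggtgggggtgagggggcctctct
The reference table held windows for 7 of the 10 genes, 11 windows in all, and none for CCND1, CCNE2 or CDK2. The CDKN1B window held 2 CCAAT words and 1 GC box at 64.4% GC. In the CCNE1 window there were 7 GC boxes and no CCAAT at 81.2% GC, in that of CDKN1A 4 GC boxes at 76.4%, 2 of which share a base, and in that of CDK4 3 at 65.6%. Of 35116 promoters of the same length, 32.0% held CCAAT and 42.6% held a GC box on either strand, and the median GC content was 58.0%. The TATA word TATAAA (10.7% of all promoters) and the E2F words TTTCCCGC, TTTCGCGC, TTTGCCGC and TTTGGCGC (2.79% for any of them) matched none of the 11 windows. A match is a description of letters in this window and not a site.

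The starting levels of the 10 genes were compared between lines. With DMSO, 8 of the 10 differed in MDA-MB-468 from the ER+ mean, that of ZR-75-1 and T47D (limma, Benjamini-Hochberg adjusted p under 0.05 over all genes tested), 3 of them higher and 5 lower, where 33.1% of all genes were higher and 34.4% lower. Between ZR-75-1 and T47D, 7 differed, 4 higher in ZR-75-1 (25.9% of all genes) and 3 lower (37.1%). Both counts are near the shares over all genes and say nothing particular of the 10. The largest differences of MDA-MB-468 from the ER+ mean were those of CDK6, CDKN2A and CDKN1A.

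CDK6, a kinase of the D-type cyclins (chr7:92604921-92836573), had DMSO intensities of 1037 and 1353 in MDA-MB-468 and 1861 in BT-549, against 69.5 and 62.3 in ZR-75-1 and 54.3 and 52.5 in T47D. The triple-negative lines thus lay above the ER+ lines with no overlap, by 20.0-fold for MDA-MB-468 against the ER+ mean (log2 difference 4.32 ± 0.12 SE, limma adjusted p = 4.33e-14). CDKN2A (chr9:21967752-21995324), whose locus encodes p16 and, from another reading frame, p14ARF, had 3689 and 3784 in MDA-MB-468 and 10043 in BT-549. It had 1459 and 1429 in T47D, but 28.2 and 28.6 in ZR-75-1, close to the array background. Its 3 probe sets are annotated to the locus, not to 1 of its transcripts.

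CDKN1A, the p53 target that encodes p21 (chr6:36676463-36687332), ran the other way. It had 132 and 146 in MDA-MB-468 with DMSO, against 858 and 809 in ZR-75-1 and 662 and 666 in T47D, a 5.37-fold lower level in MDA-MB-468 than the ER+ mean (-2.43 ± 0.08 SE, limma adjusted p = 4.70e-13). BT-549 had 661, close to the T47D arrays.

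CCNE1 was 3.07-fold higher in MDA-MB-468 than in the ER+ lines with DMSO (limma adjusted p = 2.42e-10), while ZR-75-1 and T47D did not differ beyond their spread (adjusted p = 0.388). CCND1 was 2.65-fold higher in ZR-75-1 than in T47D (adjusted p = 5.61e-12); MDA-MB-468 lay between these lines, and BT-549 was lowest at 459.7. CDKN1B was 1.83-fold higher in ZR-75-1 than in T47D (adjusted p = 1.77e-05). CDK4 was lowest in MDA-MB-468 and highest in BT-549, and CCND3 differed in neither comparison (adjusted p = 0.320 and 0.293).

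**Figure D1:**
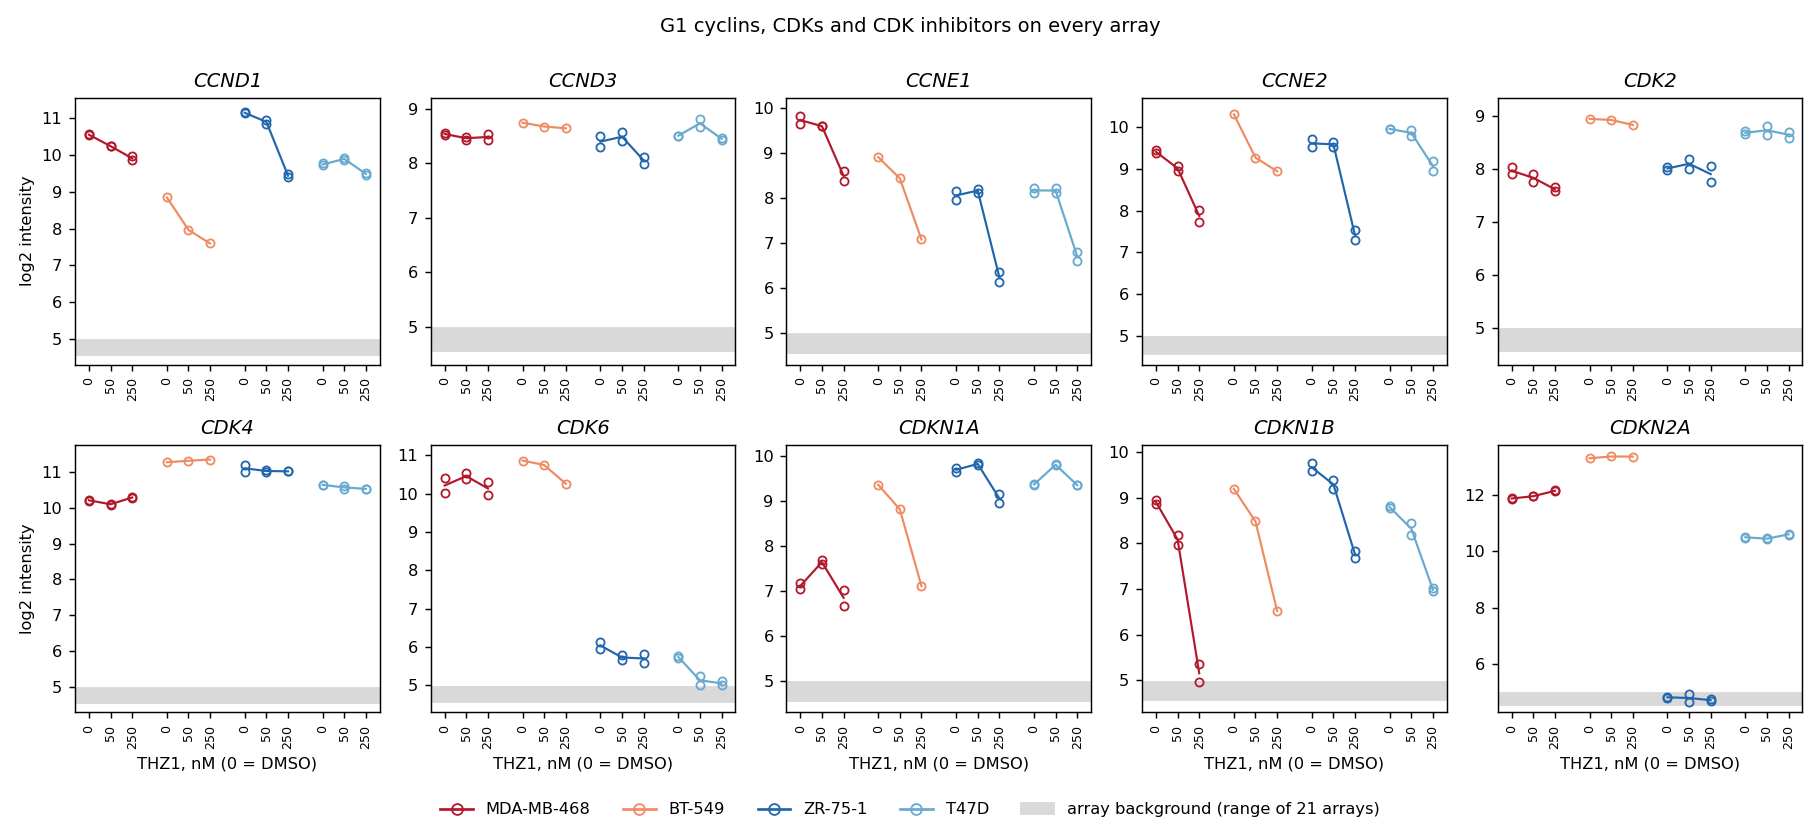
Log2 intensity (y axis) of each of the 10 genes on all 21 arrays, by line and THZ1 dose (x axis, 0 nM is DMSO); circles are arrays, lines join group means, and the grey band is the range of array backgrounds. CDKN1B falls at each step in MDA-MB-468 and reaches the edge of the background band at 250 nM, while CDK4 and CDKN2A stay near their DMSO level in each line.

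Exposure to THZ1 was compared with DMSO within each line. At 250 nM, 6 genes fell and 1 rose in MDA-MB-468, where 30.3% of all genes tested fell and 9.54% rose (limma, adjusted p under 0.05). In ZR-75-1 6 fell and 0 rose (42.8% and 9.93% of all genes), and in T47D 5 fell and 0 rose (33.7% and 9.61%). The median log2 change of the 10 genes was -0.31 in MDA-MB-468, -0.49 in ZR-75-1 and -0.18 in T47D, beside -0.07, -0.18 and -0.08 over all genes. CCND1, CCNE1, CCNE2 and CDKN1B fell in all 3 lines, with exceptions for CCND1 in T47D given below. After quantile normalization the counts of higher and lower genes over the whole array were near balance, and the small calls below moved with it, while the calls of CCNE1, CCNE2 and CDKN1B at 250 nM against DMSO were kept in each of the 3 lines.

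At 50 nM, 3 genes fell and 1 rose in MDA-MB-468 (14.6% and 4.42% of all genes), 1 fell in ZR-75-1 (5.68%) and none rose (2.79%), and 2 fell and 1 rose in T47D (7.56% and 1.99%). The median change was -0.12 in MDA-MB-468, -0.03 in ZR-75-1 and -0.03 in T47D, beside -0.06, -0.0026 and -0.03 over all genes. Each line's 50 and 250 nM comparisons share the same DMSO arrays. Tested directly, 250 nM gave lower levels than 50 nM for 5 genes in MDA-MB-468 (23.2% of all genes) and higher for 1 (5.73%), lower for 6 in ZR-75-1 (41.7%) and higher for 0 (6.64%), and lower for 6 in T47D (27.2%) and higher for 0 (4.59%).

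**Figure D2:**
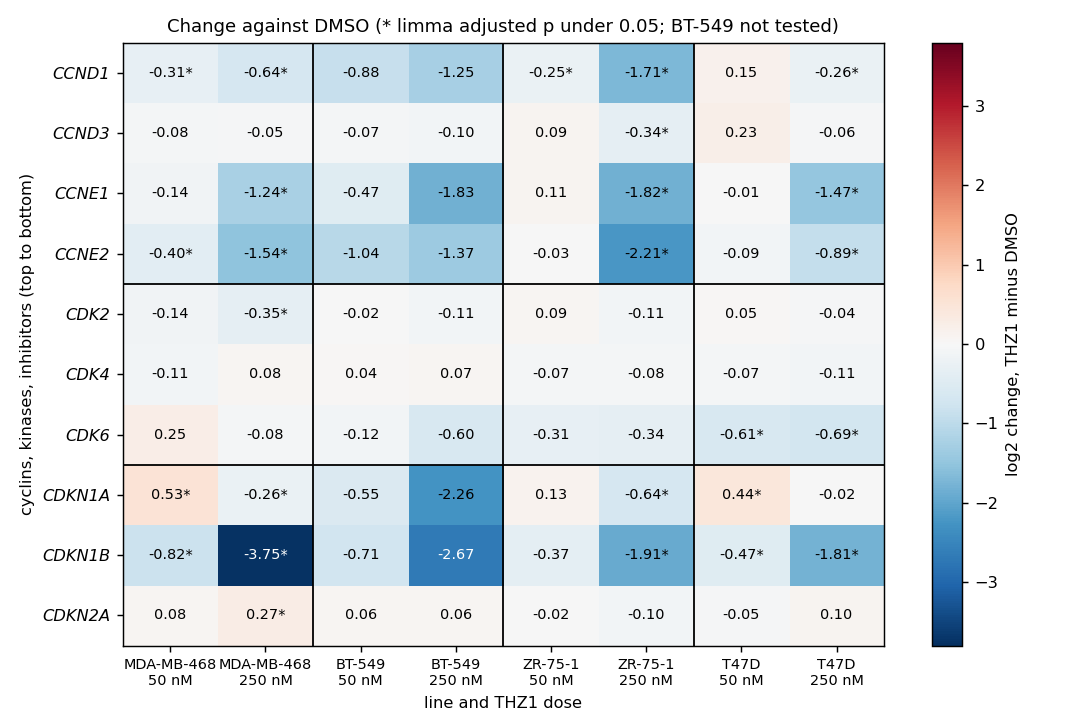
Log2 change against DMSO of each gene (rows, cyclins above kinases above inhibitors) in each line and dose (columns); blue is lower and red is higher with THZ1, and a star marks a limma adjusted p under 0.05 in the 3 lines with 2 arrays a group. The deepest cell is CDKN1B at 250 nM in MDA-MB-468 (-3.75); after quantile normalization some small changes turn sign, among them CDKN1A in MDA-MB-468 and CCND3 and CDK2 in ZR-75-1 at 250 nM.

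Of the D-type cyclins, CCND1 (chr11:69641156-69654474), the partner of CDK4 and CDK6 that mitogen and oestrogen signals induce, responded most in ZR-75-1. Its intensities there were 2282 and 2249 with DMSO, 1984 and 1835 at 50 nM, and 674 and 711 at 250 nM. The 3 doses did not overlap, and at 250 nM the level was 3.27-fold lower than with DMSO (log2 change -1.71 ± 0.06 SE, limma adjusted p = 1.29e-12). In MDA-MB-468 the arrays read 1481 and 1516 with DMSO, 1201 and 1214 at 50 nM and 997 and 925 at 250 nM, a fall at both doses (-0.31 ± 0.06, adjusted p = 0.00115, and -0.64 ± 0.06, adjusted p = 1.46e-07). The call at 50 nM was lost after median centring (-0.17). T47D had 872 and 840.4 with DMSO, 962 and 937 at 50 nM and 708 and 724 at 250 nM. There the 50 nM arrays lay above both DMSO arrays without passing the test (0.15 ± 0.06, adjusted p = 0.127; called higher after quantile normalization at 0.21), and the 250 nM arrays lay below them (-0.26 ± 0.06, adjusted p = 0.00174). That T47D call was lost after median centring (-0.14), after quantile normalization (-0.11) and with the mean of all 4 probe sets (-0.12). In BT-549, CCND1 read 459.7, 249.6 and 193 in the same order of doses, 2.38-fold lower at 250 nM.

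The 4 probe sets of CCND1 all fell at 250 nM in MDA-MB-468 (-0.64 to -0.50) and in ZR-75-1, where their changes ran from -1.71 to -0.40. In T47D 2 of the 4 fell, and the range was -0.36 to 0.23. The fall at 50 nM in ZR-75-1 (-0.25 ± 0.06, limma adjusted p = 0.0140) was carried by 1 of the 4 probe sets, and the call was lost without ZR-75-1 DMSO array 1 or 2 or without 50 nM array 2, where its value lay between -0.26 and -0.19. It was also lost with the mean of the probe sets (-0.04), after median centring (-0.23) and with the arrays of the compared line alone (-0.25).

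CCND3 (chr6:41934933-42050035), the other D-type cyclin in the set, was close to level. In MDA-MB-468 it had 379 and 366 with DMSO, 359 and 347 at 50 nM, and 345 and 374 at 250 nM. ZR-75-1 gave its only call against DMSO, with 255 and 277 at 250 nM against 314 and 364 with DMSO (-0.34 ± 0.09, limma adjusted p = 0.00278), a direction that turned to 0.10 after quantile normalization. The call was also lost without ZR-75-1 DMSO array 2 (-0.24), after median centring (-0.09) and with the mean of the probe sets (-0.11). T47D had 365 and 364 with DMSO, 449 and 406 at 50 nM, and 346 and 356 at 250 nM. Its 50 nM arrays lay above DMSO without passing (0.23, limma adjusted p = 0.119), and passed after quantile normalization (0.32). Those at 250 nM lay below 50 nM (-0.28 ± 0.09, adjusted p = 0.0183), and below DMSO without passing (-0.06, adjusted p = 0.640). With the mean of the probe sets the difference between the doses was 0.08. Its call was also lost after median centring (-0.20) and quantile normalization (-0.10). Leaving out T47D 250 nM array 1 (-0.26) or 2 (-0.31) or 50 nM array 1 (-0.21) lost it too. The second CCND3 probe set was too dim to be tested.

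The E-type cyclins, which bind CDK2 to start DNA replication, fell at 250 nM in each line tested. CCNE1 (chr19:29811991-29824312) had 333 and 389 at 250 nM against 793 and 907 with DMSO in MDA-MB-468, a 2.36-fold lower level (-1.24 ± 0.11 SE, limma adjusted p = 1.08e-07). ZR-75-1 had 81.6 and 70.0 against 285 and 249, 3.52-fold lower (-1.82 ± 0.11, adjusted p = 5.67e-10), and T47D had 97.1 and 111 against 277 and 299, 2.77-fold lower (-1.47 ± 0.11, adjusted p = 2.08e-08). Treated and DMSO arrays were well apart in each line. At 50 nM CCNE1 passed the test in none of them, with changes of -0.14 in MDA-MB-468, 0.11 in ZR-75-1 and -0.01 in T47D. BT-549 read 479.5 with DMSO, 346 at 50 nM and 135 at 250 nM, which is 3.55-fold lower at the higher dose. The other CCNE1 probe set fell in MDA-MB-468 (-1.15) and did not pass in ZR-75-1 and T47D (-0.27 in each), where its intensity was between 27.7 and 61.4, near the background.

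CCNE2, on chromosome 8, showed the largest fall of the cyclins, in ZR-75-1. Its intensities there were 734 and 843 with DMSO, 809 and 737 at 50 nM, and 184 and 156 at 250 nM. The 50 nM arrays overlapped the DMSO arrays and the 250 nM arrays were 4.63-fold lower (-2.21 ± 0.11 SE, limma adjusted p = 6.36e-11). MDA-MB-468 had 667 and 699, then 498 and 540.2, then 213 and 258 over the same doses, 2.91-fold lower at 250 nM (-1.54 ± 0.11, adjusted p = 8.45e-09). In T47D the values were 1003 and 994, 894 and 979.9, and 499 and 581, 1.86-fold lower at 250 nM (-0.89 ± 0.11, adjusted p = 5.58e-06). Both probe sets fell at 250 nM in all 3 lines. At 50 nM CCNE2 fell in MDA-MB-468 (-0.40 ± 0.11, adjusted p = 0.0179), a call lost without DMSO array 1 (-0.43), without DMSO array 2 (-0.36) or without 50 nM array 1 (-0.34) of that line, and after median centring (-0.26). In BT-549 CCNE2 was the only gene of the 10 past 2-fold at 50 nM, at 619 against 1274 with DMSO (3.24% of all genes were that far down and 0.174% that far up), and it read 494 at 250 nM.

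Of the kinases, CDK2 was called lower in MDA-MB-468 and CDK6 in T47D. CDK2 (chr12:55966830-55972789), the partner of cyclins E and A, fell in MDA-MB-468 at 250 nM, with 201 and 190.3 against 238 and 262 with DMSO (-0.35 ± 0.10 SE, limma adjusted p = 0.0119). All 3 of its probe sets fell there, from -0.40 to -0.31. The call was lost without MDA-MB-468 DMSO array 2 (-0.28) or 250 nM array 2 (-0.31), after median centring (-0.15) and after quantile normalization (-0.04). In ZR-75-1 at 250 nM CDK2 did not pass (-0.11 ± 0.10, adjusted p = 0.422), and after quantile normalization it was called higher there (0.35, adjusted p = 0.00407). T47D arrays overlapped, with 385 and 414 at 250 nM against 418 and 401 with DMSO, while 1 of the other CDK2 probe sets was called lower there (-0.38, limma adjusted p = 0.0231).

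CDK4 (chr12:57747727-57752310), a kinase partner of the D-type cyclins, was not called against DMSO by the probe set that stands for it. In MDA-MB-468 it had 1193 and 1169 with DMSO, 1089 and 1101 at 50 nM, and 1247 and 1249 at 250 nM. The change at 250 nM was 0.08 there with a 95% interval from -0.05 to 0.21, -0.08 in ZR-75-1 (-0.21 to 0.05) and -0.11 in T47D (-0.24 to 0.02). None of these intervals reaches a change of 2-fold in either direction. Of the other 3 CDK4 probe sets, 1 was called higher at 250 nM in MDA-MB-468 (0.19, limma over all probe sets, adjusted p = 0.0224) and another in ZR-75-1 (0.27, adjusted p = 0.0322), and median centring called the gene higher in MDA-MB-468 (0.28). Between the doses in MDA-MB-468, CDK4 was 1.14-fold higher at 250 nM than at 50 nM (limma adjusted p = 0.0277), a call lost without any 1 of the 4 arrays compared (0.18 to 0.20), after median centring (0.25) and without a mean-variance trend (0.19). The BT-549 arrays read 2467, 2538 and 2598 from DMSO to 250 nM.

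CDK6 did not pass in MDA-MB-468 at 50 nM (0.25 ± 0.14, limma adjusted p = 0.255; called higher after median centring at 0.39) or 250 nM (-0.08 ± 0.14, adjusted p = 0.721), where its arrays spread from 992 to 1474. In T47D it fell at both doses, with 54.3 and 52.5 for DMSO, 32.2 and 38.1 at 50 nM and 32.0 and 34.4 at 250 nM (-0.61 ± 0.14, adjusted p = 0.0128, and -0.69 ± 0.14, adjusted p = 9.66e-04). These treated values lie close to the array background, and 2 of the 4 probe sets fell at each dose. The T47D means were log2 5.74 with DMSO, 5.13 at 50 nM and 5.05 at 250 nM, all below the filter for testing (log2 5.84). CDK6 was tested because it was brighter in other groups, so both T47D calls rest on dim values. The 50 nM call was lost without T47D DMSO array 1 or 2 or without 50 nM array 1 (-0.63 to -0.49). ZR-75-1 at 250 nM had 56.2 and 48.2 against 69.5 and 62.3 with DMSO, which did not pass (-0.34 ± 0.14, adjusted p = 0.0580) and passed with the replicate number as a block (adjusted p = 0.0462) and with the mean of the probe sets (-0.36). BT-549 had 1224 at 250 nM against 1861 with DMSO, 1.52-fold lower.

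Among the inhibitors, CDKN1B (chr12:12717368-12722369), which encodes p27, gave the largest change of the 10 genes at 250 nM in MDA-MB-468, T47D and BT-549. In MDA-MB-468 its arrays read 496 and 464 with DMSO, 252 and 293 at 50 nM, and 31.0 and 40.9 at 250 nM. Each step was clear of the one before, and 250 nM stood 13.5-fold below DMSO (-3.75 ± 0.13 SE, limma adjusted p = 2.09e-12), close to the array background. The fall at 50 nM was 1.77-fold (-0.82 ± 0.13, adjusted p = 0.000275). ZR-75-1 had 766 and 862, 671 and 587, and 228 and 205 over the same doses. There 50 nM did not pass (-0.37 ± 0.13, adjusted p = 0.0892). It was called lower with the mean of the probe sets (-0.33) and without either MDA-MB-468 250 nM array (-0.37). In ZR-75-1 250 nM was 3.76-fold lower than DMSO (-1.91 ± 0.13, adjusted p = 2.29e-09). T47D had 451 and 437 with DMSO, 292 and 351 at 50 nM, and 124 and 129.9 at 250 nM. Both doses were lower than DMSO, 250 nM by more (-1.81 ± 0.13, adjusted p = 1.29e-08) and 50 nM by less (-0.47 ± 0.13, adjusted p = 0.0291).

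The T47D call of CDKN1B at 50 nM was lost without DMSO array 1 or 2 or without 50 nM array 1 (-0.49 to -0.34), after median centring (-0.43) and after quantile normalization (-0.41). BT-549 read 586, 357 and 91.8 from DMSO to 250 nM, 6.38-fold lower at the higher dose. Both CDKN1B probe sets fell at 250 nM in the 3 tested lines, with changes for the second of -1.90 in ZR-75-1 and -2.02 in T47D. In MDA-MB-468 the second was not above background on either array at 250 nM, so its measured fall there is only a lower bound and no size is given.

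CDKN1A, the other CIP/KIP inhibitor in the set, had its own pattern. In MDA-MB-468 it had 132 and 146 with DMSO, 206 and 194 at 50 nM, and 130.3 and 102 at 250 nM. It rose at 50 nM, 1.45-fold (0.53 ± 0.10 SE, limma adjusted p = 0.00111). At 250 nM it was called lower by a small margin (-0.26 ± 0.10, adjusted p = 0.0440), with 0.06 after quantile normalization and, without a call, -0.06 after median centring. Leaving out 1 array lost that call in 12 of 18 fits, with -0.19 without MDA-MB-468 DMSO array 2, -0.09 without 250 nM array 2, and the same -0.26 without either 50 nM array of that line, either ZR-75-1 50 nM array or any T47D array. T47D had 662 and 666, then 905 and 897, then 658 and 655, a rise of 1.36-fold at 50 nM (0.44 ± 0.10, adjusted p = 0.00894) and no call at 250 nM (-0.02, adjusted p = 0.907). That 50 nM call too was lost without T47D DMSO array 1 or 2 or 50 nM array 1 (0.43 to 0.44). Of the 2 CDKN1A probe sets, 1 passed at 50 nM in each of these lines and the other read 0.23 in MDA-MB-468 and 0.26 in T47D.

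In ZR-75-1 CDKN1A had 858 and 809 with DMSO, 901 and 923 at 50 nM, and 574 and 498 at 250 nM. The arrays at 50 nM lay above DMSO without passing (0.13 ± 0.10, limma adjusted p = 0.494), and those at 250 nM were 1.56-fold lower (-0.64 ± 0.10, adjusted p = 3.45e-05). BT-549 differed in its values, with 661 for DMSO, 452 at 50 nM and 138 at 250 nM, 4.79-fold lower. Set directly against 50 nM, 250 nM was lower in MDA-MB-468 (-0.79, adjusted p = 8.66e-06), in ZR-75-1 (-0.77, adjusted p = 5.03e-06) and in T47D (-0.46, adjusted p = 0.00169).

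CDKN2A, at high intensity in 3 lines, was the gene that rose in MDA-MB-468 at 250 nM, with 4554 and 4474 against 3689 and 3784 for DMSO (0.27 ± 0.08, limma adjusted p = 0.00817). The rise was 1.21-fold, was seen in 1 of 3 probe sets, and lost its call without MDA-MB-468 DMSO array 1 (0.25), after quantile normalization (0.13) and with the mean of the probe sets (0.15). T47D had 1572 and 1533 against 1459 and 1429, which did not pass (0.10, adjusted p = 0.291). Median centring (0.23) and the mean of the probe sets (0.19) called it higher in T47D. In ZR-75-1 the 2 arrays at 250 nM were not above background for the probe set that stands for the gene, and no fold is given for it. Another CDKN2A probe set, at 44.1 and 49.4 against 32.8 and 28.7 with DMSO, was called higher there (0.61, limma adjusted p = 1.90e-04), near the background, and the third was not (0.02, adjusted p = 0.935). BT-549 had 10466 at 250 nM and 10043 with DMSO.

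**Figure D3:**
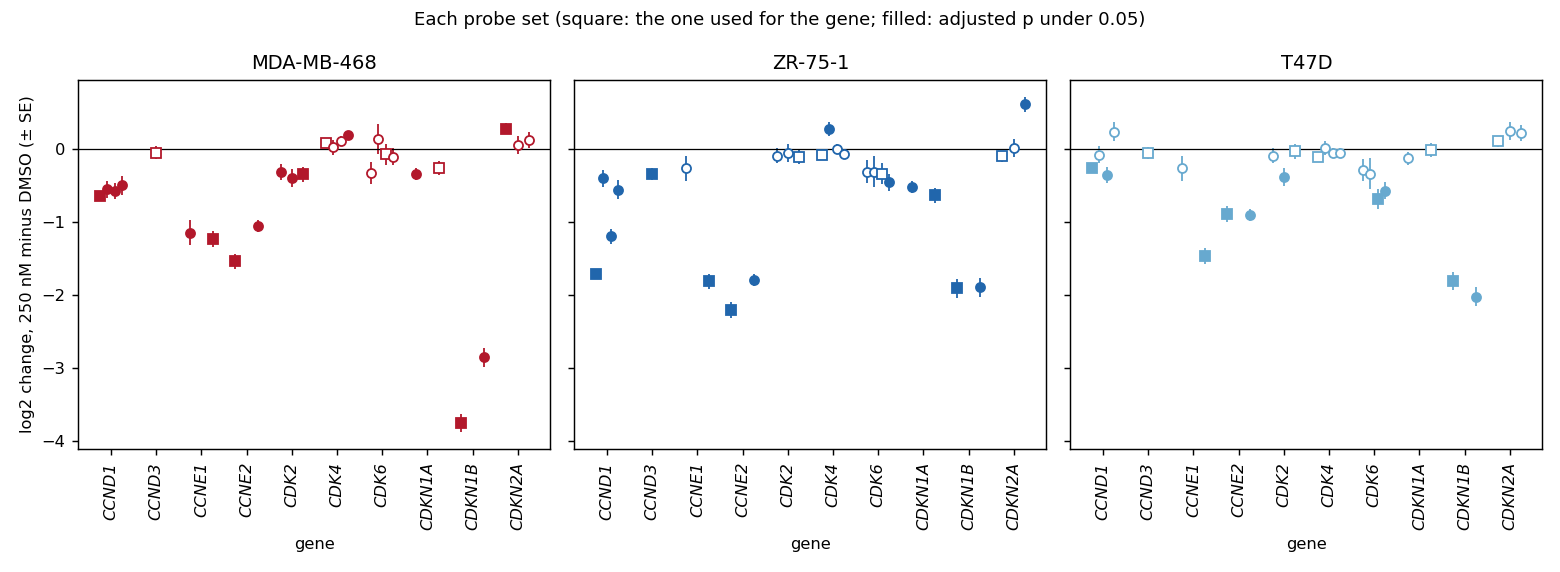
Log2 change at 250 nM against DMSO (y axis, ± SE) of every tested probe set of the 10 genes (x axis) in a panel for each replicated line; squares are the probe sets that stand for the gene, and filled symbols passed the limma test over all probe sets. Both CDKN1B and both CCNE2 probe sets lie below 0 in each line, the second CDKN1B probe set in MDA-MB-468 being not above background at 250 nM, and the CCND1 probe sets spread from -1.71 to -0.40 in ZR-75-1.

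Taking the 4 lines together, with each line counted once, 5 of the 10 genes fell at 250 nM (29.9% of all genes) and none rose (9.48%), in a limma fit of 12 line-by-dose means. The log2 changes were -2.54 ± 0.28 (SE) for CDKN1B (adjusted p = 2.20e-04), -1.59 ± 0.13 for CCNE1 (adjusted p = 8.31e-05), -1.50 ± 0.25 for CCNE2 (adjusted p = 0.00170) and -0.97 ± 0.23 for CCND1 (adjusted p = 0.00839). CDK6 also passed (-0.43 ± 0.13, adjusted p = 0.0280), a call lost without BT-549 (-0.37), ZR-75-1 (-0.46) or T47D (-0.34), after median centring (-0.27) and after quantile normalization (-0.33). Its T47D means with DMSO and at 250 nM (log2 5.74 and 5.05) and its ZR-75-1 mean at 250 nM (5.70) were below the filter for testing, log2 5.84. CDKN1A did not pass (-0.79 ± 0.30, adjusted p = 0.0592), its 4 changes running from -2.26 in BT-549 to -0.02 in T47D. With the mean of the probe sets it was called lower (-0.67). At 50 nM 0 of the 10 passed, where 0.316% of all genes fell and 0.182% rose. In BT-549 alone, 5 genes were past 2-fold lower at 250 nM (CCND1, CCNE1, CCNE2, CDKN1A and CDKN1B; 8.94% of all genes were) and none was past 2-fold higher (0.182%).

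Whether a line responded differently was tested as the difference of changes. At 250 nM 3 genes differed in MDA-MB-468 from the ER+ mean, 1 below 0 (5.12% of all genes) and 2 above (13.9%). CDKN1B fell 3.72-fold further in MDA-MB-468 (-1.89, 95% interval -2.23 to -1.56, limma adjusted p = 1.14e-06). That difference was between -2.06 and -1.39 with the other scalings, the pseudocount and the mean of probe sets, and between -2.09 and -1.69 with 1 array left out. The -1.39 came with the mean of the probe sets, which takes in the CDKN1B probe set not above background in MDA-MB-468 at 250 nM. The probe set that stands for CDKN1B read 31.0 and 40.9 there, close to the array background. CCND1 fell less in MDA-MB-468 than in the ER+ mean (0.34, interval 0.19 to 0.49, adjusted p = 0.00299), but the difference was -0.03 with the mean of the probe sets and 0.18, without a call, after quantile normalization. That ER+ mean joins unlike changes, -1.71 in ZR-75-1 and -0.26 in T47D. MDA-MB-468 (-0.64) lay between them, and BT-549 read -1.25. CCNE1 also fell less in MDA-MB-468 than in the ER+ mean (0.40, interval 0.12 to 0.69, adjusted p = 0.0445), and the mean of the probe sets gave -0.24. Its call was lost after quantile normalization (0.19), with the pseudocount of 16 (0.28), with no filter on low values and without a mean-variance trend (0.40 in both). The call was also lost in 13 of the 18 fits without 1 array, where it lay between 0.29 (without MDA-MB-468 250 nM array 2) and 0.43 (without T47D DMSO array 1), and kept without MDA-MB-468 DMSO array 2 or 250 nM array 1, ZR-75-1 DMSO array 2 or 250 nM array 1, or T47D 250 nM array 2. CCNE2 did not differ beyond its spread (0.01, interval -0.27 to 0.29).

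Between the ER+ lines, 3 genes fell further in ZR-75-1 than in T47D at 250 nM (19.8% of all genes had a difference below 0 that passed, and 2.44% one above). They were CCND1 (-1.45, interval -1.63 to -1.28, limma adjusted p = 1.91e-08), CCNE2 (-1.32, interval -1.65 to -0.99, adjusted p = 1.45e-05) and CDKN1A (-0.62, interval -0.92 to -0.33, adjusted p = 0.00381). Under other processing settings these differences shrank as far as -0.85 for CCND1, -1.06 for CCNE2 and -0.49 for CDKN1A. CDKN1B did not pass (-0.10, interval -0.49 to 0.28, adjusted p = 0.757). With the values as deposited, the only difference that passed at 50 nM was that of CDK6 in MDA-MB-468 against the ER+ mean (0.71, interval 0.33 to 1.08, limma adjusted p = 0.0412). Of all genes, 0.403% passed above 0 and 2.48% below. In MDA-MB-468 alone CDK6 did not pass at 50 nM (0.25, limma adjusted p = 0.255). Its T47D means (log2 5.74 with DMSO and 5.13 at 50 nM) were below the filter for testing, log2 5.84. In ZR-75-1 the mean was above the filter with DMSO (6.04) and below it at 50 nM (5.73). CDK6 was tested because it was brighter in other groups, so this difference rests in part on dim ER+ values. The call was lost with the mean of the probe sets (0.27), without a mean-variance trend in limma (0.71, adjusted p = 0.0573) and in 8 of the 18 fits without 1 array: MDA-MB-468 DMSO array 1 (0.51) and either 50 nM array (0.64 and 0.78), ZR-75-1 DMSO array 1 (0.67) and 50 nM array 1 (0.67), and T47D DMSO array 1 or 2 (0.69 and 0.72) and 50 nM array 1 (0.65). For ZR-75-1 against T47D at 50 nM 0 of the 10 passed (0.087% below and 0.127% above). CCND1 came close there (-0.40, limma adjusted p = 0.0636) and was called after quantile normalization (-0.46). In MDA-MB-468 against the ER+ mean CCND1 also came close (-0.26, limma adjusted p = 0.0612). That difference was called after quantile normalization (-0.35) and with the mean of the probe sets (-0.31). CCNE2 (-0.34, limma adjusted p = 0.206) was called with the mean of the probe sets (-0.39).

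**Figure D4:**
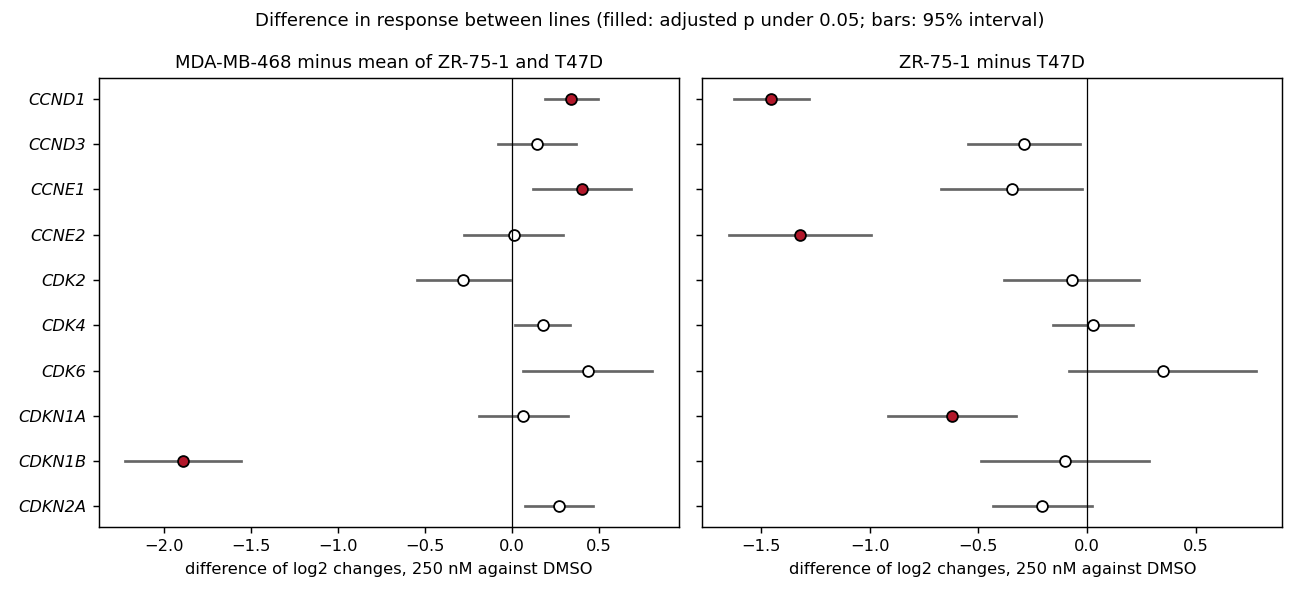
Difference between lines in the log2 change at 250 nM against DMSO (x axis) for each gene (y axis), with 95% intervals; MDA-MB-468 minus the mean of ZR-75-1 and T47D is on the left and ZR-75-1 minus T47D on the right, and filled points passed the limma test. CDKN1B stands alone at -1.89 on the left, and CCND1 and CCNE2 stand at -1.45 and -1.32 on the right; with the mean of the probe sets the CCND1 and CCNE1 points on the left lie at -0.03 and -0.24. Under other processing settings the CCND1 and CCNE2 differences on the right shrink as far as -0.85 and -1.06.

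Other genes of the same transition were counted from a list of 28, of which 26 were tested. At 250 nM, 15 fell and 1 rose in MDA-MB-468, 16 fell and 2 rose in ZR-75-1, and 17 fell and 3 rose in T47D, with median log2 changes of -0.42, -0.59 and -0.43. Over all genes 30.3% fell and 9.54% rose in MDA-MB-468, 42.8% and 9.93% in ZR-75-1, and 33.7% and 9.61% in T47D, with medians of -0.07, -0.18 and -0.08. CDC25A, the phosphatase that activates CDK2, fell 3.26-fold in MDA-MB-468, 5.28-fold in ZR-75-1 and 2.30-fold in T47D (limma adjusted p = 1.35e-11, 2.61e-13 and 1.40e-09). SERTAD1, a CDK4-binding regulator, fell 4.15-fold and E2F3, an activating E2F, 3.01-fold in MDA-MB-468. E2F5, a repressive E2F, fell 6.04-fold in ZR-75-1 and 2.53-fold in T47D, and CUL1, the scaffold of the SCF ubiquitin ligase that degrades p27, fell 2.90-fold and 2.25-fold in these lines. At 50 nM, 4 of the 26 fell and 2 rose in MDA-MB-468, 1 fell and 2 rose in ZR-75-1, and 3 fell and 1 rose in T47D, where 14.6% of all genes fell and 4.42% rose in MDA-MB-468, 5.68% and 2.79% in ZR-75-1, and 7.56% and 1.99% in T47D.

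Of the CDK-activating kinase, CDK7 itself, the target of THZ1, fell at 250 nM by 0.93 on the log2 scale in MDA-MB-468, 1.25 in ZR-75-1 and 0.73 in T47D (limma adjusted p = 2.99e-08, 4.52e-10 and 6.38e-07). Its cyclin CCNH and its assembly factor MNAT1 had smaller changes at that dose: both fell in ZR-75-1 (-0.32 and -0.26, adjusted p = 0.0136 and 0.0127), and neither passed in MDA-MB-468 (-0.05 and -0.10) or T47D (0.01 and -0.17). At 50 nM MNAT1 rose in MDA-MB-468 (0.32, limma adjusted p = 0.0113), where CCNH (0.26, adjusted p = 0.0864) and CDK7 (-0.18, adjusted p = 0.104) did not pass, and 0 of the 3 passed in ZR-75-1 or T47D. Set against 50 nM, 250 nM was lower for 3 of the 3 in MDA-MB-468 (23.2% of all genes), for 3 in ZR-75-1 (41.7%) and for 1 in T47D (27.2%).

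Since CDKN1A is a p53 target, 14 other targets of p53 were counted, of which 13 were tested. At 50 nM, where CDKN1A rose in MDA-MB-468 and T47D, 1 of these 13 fell and 1 rose in MDA-MB-468, 0 fell and 2 rose in ZR-75-1, and 0 fell and 1 rose in T47D. The shares over all genes were 14.6% lower and 4.42% higher in MDA-MB-468, 5.68% and 2.79% in ZR-75-1, and 7.56% and 1.99% in T47D. At 250 nM 7 fell and 0 rose in MDA-MB-468, 9 fell and 1 rose in ZR-75-1, and 9 fell and 0 rose in T47D, with medians of -0.65, -0.55 and -0.35. At that dose the shares of all genes were 30.3% lower and 9.54% higher in MDA-MB-468, 42.8% and 9.93% in ZR-75-1, and 33.7% and 9.61% in T47D, with medians of -0.07, -0.18 and -0.08. SESN2, a stress-response inhibitor of mTORC1, fell 3.27-fold in MDA-MB-468, 2.01-fold in ZR-75-1 and 2.18-fold in T47D (limma adjusted p = 2.70e-10, 7.39e-08 and 5.30e-08). BBC3, which encodes the pro-apoptotic PUMA, fell 4.70-fold and GADD45A 1.57-fold in MDA-MB-468. MDM2, the ubiquitin ligase of p53, fell 3.32-fold in ZR-75-1 and 1.88-fold in T47D, and the death receptor TNFRSF10B 3.05-fold and 1.38-fold.

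The genes most like each of the 10 were found by Pearson's r, as a description across points that share lines and, for changes, the DMSO arrays of a line. They were picked as the highest r among all genes tested, over only 12 or 8 points, so a high r alone sets no gene apart. Shared control was not tested. Over the 12 line-by-dose mean levels, the nearest to CDKN2A were LAMB1 (0.9992) and MYOF (0.9957), and to CDK6 IGFBP3 (0.995) and TM4SF1 (0.9898). REEP4 (0.9898) and ID1 (0.986) were nearest to CDK2, and CIBAR1 (0.9889) and ARHGAP44 (0.9852) to CDK4. For CCND1 they were TMEM216 (0.9745) and CHST15 (0.9676), for CCND3 BRD9 (0.947) and TJAP1 (0.9411), for CCNE1 SPRED1 (0.9762) and RLF (0.9723), and for CCNE2 SLC25A28 (0.9763) and PIGA (0.9661). CDKN1A was nearest to C3orf52 (0.95) and METRNL (0.9349), and CDKN1B to BAMBI (0.9621) and TBCC (0.9576). Over the 8 changes against DMSO the nearest were NIBAN2 to CCND1 (0.986), NPHP4 to CCND3 (0.9894), PUS3 to CCNE1 (0.9928) and SLC37A3 to CCNE2 (0.9978). HDGFL2 was nearest to CDK2 (0.9764), IARS1 to CDK4 (0.9498), DHX38 to CDK6 (0.9559), ETV5 to CDKN1A (0.9742), IBA57 to CDKN1B (0.9931) and NPL to CDKN2A (0.9545).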

How the data were processed

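Each value the authors deposited is a linear intensity of 1 probe set from MAS5, per the submitters' processing notes. The MAS5 version and the scaling between arrays are not given in the sources used here. On the 21 arrays there are 49395 probe sets, 44994 of them with 1 gene symbol in the platform annotation; the number of arrays limits the precision. Titles and the cell line field gave the groups. Values were raised to a floor of 1, taken to log2 and not rescaled. A gene is its probe set with the highest mean. A gene was tested if in at least 1 group its mean was no lower than the median over the table (log2 5.84, intensity 57.4). limma 3.58.1 in R 4.3.3 (lmFit, then eBayes with trend; degrees of freedom 9 residual, 6.18 prior) was run on the 18 arrays of the lines with replicates, with a mean for each of 9 groups and Benjamini-Hochberg adjustment within a contrast over 12644 genes at 0.05. The 4-line comparison used 12 line-by-dose means with line as a term. "Above background" means above the mean of an array's 23 background probe sets. The code was tested on simulated data with 200 changed genes. Alternatives were median centring, quantile normalization, a pseudocount of 16, other filters, the mean of a gene's probe sets, fewer lines, no trend, a replicate block and each array left out. The members, lists and named genes (the 3 with the largest moderated statistic per list and line at 250 nM, the 2 most like a member in level and the 1 in change) were chosen with earlier results of these data known. Same-numbered arrays deviated together in 3 of 9 pairs of groups at a correlation over 0.1 (range -0.22 to 0.29), and the number was not taken as a pairing.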

Additional observations from a re-analysis of the deposited data

Results flagged for a closer look

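The changes of 6 genes differed between lines by a test of the difference itself (limma, adjusted p under 0.05). At 250 nM, the ER+ mean change subtracted from that in MDA-MB-468 gave -1.89 for CDKN1B, 0.34 for CCND1 and 0.40 for CCNE1. For CCND1 the ER+ mean joins -1.71 in ZR-75-1 and -0.26 in T47D, and MDA-MB-468 (-0.64) lay between them. At 50 nM that difference was 0.71 for CDK6, whose T47D means were below the filter for testing (log2 5.84). The change in ZR-75-1 minus that in T47D at 250 nM was -1.45 for CCND1, -1.32 for CCNE2 and -0.62 for CDKN1A. CDKN1B at 250 nM read 31.0 and 40.9 in MDA-MB-468, and array backgrounds lay between 23.5 and 31.4.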

How the results depend on the processing

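With the replicate block no call among the 10 genes was lost and 2 were gained, CDK6 in ZR-75-1 at 250 nM (adjusted p = 0.0462) and the difference of CDKN2A between MDA-MB-468 and the ER+ mean at 250 nM (adjusted p = 0.0385); with the ZR-75-1 50 nM numbers crossed, an alternative chosen after seeing the data, 2 were gained. Quantile normalization turned CDKN1A in MDA-MB-468 at 250 nM (0.060) and, in ZR-75-1, CCND3 (0.10) and CDK2 (0.35) at 250 nM and CDK2 between doses (0.25). The mean of a gene's probe sets turned CCND3 between doses in T47D (0.080) and the differences between MDA-MB-468 and the ER+ mean at 250 nM of CCND1 (-0.027) and CCNE1 (-0.24).

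Median centring gave 1 gene lower and 2 higher in MDA-MB-468 at 50 nM, 2 higher there at 250 nM, 0 lower in ZR-75-1 at 50 nM, 1 lower at 50 nM and 1 higher at 250 nM in T47D, and 1 higher over 4 lines at 250 nM. Quantile normalization gave 0 higher in MDA-MB-468 and 1 in ZR-75-1 at 250 nM, 1 lower and 3 higher in T47D at 50 nM, 1 higher between doses in ZR-75-1, and differences for 2 genes (MDA-MB-468, 50 nM), 1 (ZR-75-1 against T47D, 50 nM) and 1 (MDA-MB-468, 250 nM). The probe set mean gave 0 higher in MDA-MB-468 and 1 in T47D and over 4 lines at 250 nM, and 2 differences at 50 nM. The pseudocount of 16 gave 2 higher between doses in MDA-MB-468, the compared lines alone 2 there, 1 in T47D and 0 lower in ZR-75-1 at 50 nM, and no trend 0 higher between doses in MDA-MB-468 and 0 differences at 50 nM. Smaller moves of a count are not listed. Among them, median centring and quantile normalization each lost lower calls at 250 nM against DMSO. These were CDK2 and CDKN1A in MDA-MB-468, CCND3 in ZR-75-1 and CCND1 in T47D. The cause was not tested. With 1 array left out, the ranges were 0 to 2 higher between doses, 0 to 1 higher at 250 nM and 0 to 2 differing at 50 nM in MDA-MB-468, 0 to 2 lower in ZR-75-1 at 50 nM, and in T47D 0 to 2 lower and 0 to 1 higher at 50 nM and 0 to 1 higher between doses.

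Over all genes, the values as deposited gave 3834 lower and 1206 higher in MDA-MB-468 at 250 nM (median -0.07), median centring 2757 and 3466 (0.13) and quantile normalization 2890 and 3095 (0.08). In ZR-75-1 they gave 5406 and 1256 (-0.18), 3998 and 3567 (0.07) and 3878 and 4113 (0.08), and in T47D 4256 and 1215 (-0.08), 3295 and 2440 (0.05) and 3054 and 3356 (0.07). At 50 nM, in the same order of settings, MDA-MB-468 had 1844 lower and 559 higher, 1067 and 1628, and 1418 and 784. ZR-75-1 had 718 and 353, 506 and 256, and 734 and 409 at that dose. T47D had 956 and 252, 630 and 220, and 727 and 542. Intensities near the array backgrounds of 23.5 to 31.4 limit CDKN1B in MDA-MB-468, CDK6 in T47D and CDKN2A in ZR-75-1. By the probe sets that stand for these genes, only CDKN2A in ZR-75-1 at 250 nM was not above background. The second CDKN1B probe set in MDA-MB-468 was not above it at 250 nM either.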
